A study of Mus musculus with 8 samples.

Results

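Interferon-stimulated CD4 T cells were described here as the CD4 cells of the NOD mouse pancreas that carried transcripts of several interferon-induced genes at once. A cell was taken when it had at least 500 detected genes, under 10% mitochondrial transcripts, at least 2 transcripts over the 6 genes of the T cell receptor complex (Cd3d, Cd3e, Cd3g, Trac, Trbc1, Trbc2), at least 1 transcript of Cd4 and none of Cd8a or Cd8b1. It also had to hold at least 1 transcript of at least 3 of 6 rule genes, which were Ifit1, Ifit3, Isg15, Usp18, Rtp4 and Rsad2. Transcripts were counted as unique molecular identifiers (UMIs), the tags that mark each captured molecule in droplet sequencing. The cells were thus chosen by their measured levels of these genes. The rule found 1046 interferon-gated cells among 29350 CD4-gated cells and 80470 cell barcodes in the 8 libraries. They were compared with the 21826 CD4-gated cells that had no UMI of the 6 genes, called negative cells here. The remaining CD4-gated cells had 1 or 2 of the 6 genes (5286 and 1192 cells).

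Type I interferons bind a receptor made of Ifnar1 and Ifnar2, whose kinases Tyk2 and Jak1 phosphorylate STAT factors such as Stat2. These join Irf9 and bind promoters at an element built of GAAA repeats, which turns on many antiviral genes. Interferon-gamma uses another receptor, and its classical targets are the guanylate-binding proteins, the immunity-related GTPases and the genes of antigen presentation by MHC class I. In autoimmune diabetes of the NOD strain, interferon-induced transcripts have long been studied in islets and in the T cells that infiltrate them.

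The 6 rule genes encode proteins with different tasks. Ifit1 and Ifit3 bind viral RNA or its partners, and Isg15 is a ubiquitin-like protein that is attached to other proteins. Usp18 removes Isg15 and also dampens the receptor, Rsad2 is the antiviral enzyme viperin, and Rtp4 is a transporter-like protein that binds RNA. Their promoters are shown because the rule rests on these genes and because the repeat named above can be seen in them. The sequences are from RefSeq (GRCm38.p6) and belong to the C57BL/6J reference strain, not to NOD. A promoter window covered 250 bases before to 50 bases after the gene start. Capitals mark each match to GAAANNGAAA or its reverse complement TTTCNNTTTC, and matches may overlap each other. A window was at hand for 4 of the 6 rule genes, all 4 with a match.
Ifit1, chr19:34640770-34640828, plus strand: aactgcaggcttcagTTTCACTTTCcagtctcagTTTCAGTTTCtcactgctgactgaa
Ifit3, chr19:34583358-34583431, plus strand: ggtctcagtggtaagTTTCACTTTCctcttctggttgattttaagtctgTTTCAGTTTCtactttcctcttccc
Isg15, chr4:156200860-156200911, minus strand: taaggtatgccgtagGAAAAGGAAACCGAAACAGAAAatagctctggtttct
Rsad2, chr12:26456548-26456587, minus strand: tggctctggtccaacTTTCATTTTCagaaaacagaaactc
All of these stretches lie upstream of the annotated gene start. The stretch of Isg15 holds 3 overlapping matches, those of Ifit1 and Ifit3 hold 2 separate ones each, and that of Rsad2 holds 1.

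All mice were NOD mice, labelled female, which develop diabetes spontaneously. They were labelled as 3 to 4 months old, and the treatment protocol gives up to 5 months. Active disease, with glucose over 600 mg/dl, and onset, with glucose of 250 mg/dl, had 1 library each. The other 6 came from newly diabetic mice (200 to 300 mg/dl) given vehicle or PPCA each day, with 1 library of each arm on days 2, 3 and 4. PPCA joins an MDM2 antagonist that frees p53, nutlin-3 at 50 mg/kg, with a WEE1 kinase inhibitor, MK-1775 at 25 mg/kg, and the vehicle was 30% ethanol, 5% Tween 20 and 65% PEG300. Cells were sorted as CD45+ CD3+ TcR-beta+ and frozen before library preparation. The labels do not give the number of mice per library, so p-values measure the spread between libraries.

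The libraries held 36934580 to 67603740 UMIs, and CD4-gated cells had a median of 3900 to 6199 UMIs. Against the label, 4 libraries (vehicle days 2 and 3, PPCA days 3 and 4) carried Y-linked transcripts at 189 to 276 counts scaled to a library sum of 1000000 UMIs (CPM) and under 1 CPM of Xist. The other 4 (active, onset, PPCA day 2, vehicle day 4) carried Xist at 419 to 632 CPM. On days 2 and 4 the vehicle and PPCA libraries differ in this respect, and on day 3 both are Y-linked, so counts of genes are also given for each kind of library. Any pair of libraries shared 10 to 38 kept barcodes, at most 0.447% of the smaller one, and no interferon-gated barcode was shared.

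Marker genes of several cell types were then compared. The gate itself asks for at least 2 transcripts over the 6 T cell genes, so finding them is no check of the label. All 6 were detected in the interferon-gated cells of every library, at a summed 5475 to 7232 CPM against 5537 to 7441 CPM in negative cells. In the active library the 4 erythroid genes summed to 6.64 CPM in interferon-gated and 293 CPM in negative cells. Elsewhere they were at 0 to 5.07 CPM against 0.112 to 8.05 CPM. The part of these genes in the results was not tested. Of 6 B cell markers 1 to 4 were detected in the interferon-gated cells of a library, with Ms4a1 at 0 in all of them, and their summed level was 34.4 to 289 CPM against 111 to 227 CPM. Of 8 myeloid markers 1 to 5 were detected, with C1qa, C1qb and Csf1r at 0, at 68.9 to 138 CPM against 119 to 146 CPM. For 5 markers of plasmacytoid dendritic cells, the classical producers of type I interferon, the sum was 0 to 34.4 CPM against 9.52 to 15 CPM, with Siglech at 0. The 4 NK markers summed to 0 CPM in the interferon-gated cells of 6 libraries, to 1.24 CPM in the active library (2.35 CPM in negative cells) and to 9.58 CPM, 20 UMIs of Ncr1 and Klrk1, in PPCA day 2 (4.53 CPM in negative cells), with Klrb1c at 0 in all. Their part in the results was not tested. The 3 gamma delta T cell markers summed to 8.61 to 24.7 CPM against 7.49 to 15.2 CPM, higher in 7 of 8 libraries, and their part in the results was not tested. Interferon-gated cells had more UMIs than negative cells in every library, for example a median of 6620 against 6055 in the active library and 4594 against 4019 in PPCA day 2. Their median mitochondrial share was 1.91% to 4.04%, against 2.03% to 4.41%.

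The values that chose the cells are given as a description. Isg15 was detected in 964 of the 1046 cells (92.2%), Ifit1 in 860 (82.2%), Rtp4 in 756 (72.3%), Ifit3 in 554 (53%), Usp18 in 519 (49.6%) and Rsad2 in 197 (18.8%). The number of rule genes detected was 3 in 566 cells (54.1%), 4 in 290, 5 in 148 and 6 in 42. Cells just inside the threshold, with 3 genes, had a median over libraries of 380 CPM of Isg15 and 226 CPM of Ifit1. Cells just outside it, with 2 genes, had 196 and 93.6 CPM. Over the interferon-gated cells of a library the level of Isg15 was 284 to 686 CPM and that of Ifit1 130 to 493 CPM. Vehicle day 3 was lowest for Isg15 and vehicle day 4 for Ifit1, and PPCA day 2 and PPCA day 3 were highest.

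The cells were spread very unevenly over the libraries. In the active library 337 of 2963 CD4-gated cells passed the gate (11.4%, exact Clopper-Pearson 95% interval 10.3 to 12.6%), against 51 of 5163 at onset (0.988%, 0.736 to 1.3%). On day 2 the gate held 411 of 3350 cells under PPCA (12.3%, 11.2 to 13.4%) and 41 of 3142 under vehicle (1.3%, 0.938 to 1.77%). On day 3 it held 147 of 2737 under PPCA (5.37%, 4.56 to 6.28%) and 28 of 3751 under vehicle (0.746%, 0.497 to 1.08%). On day 4 it held 12 of 3272 under PPCA (0.367%, 0.190 to 0.640%) and 19 of 4972 under vehicle (0.382%, 0.230 to 0.596%). PPCA day 2 supplied 39.3% of all interferon-gated cells and the active library 32.2%, so sums over all cells describe mainly these libraries. The intervals cover counting error only, and active and onset have 1 library each, whose difference was not tested.

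**Figure D1:**
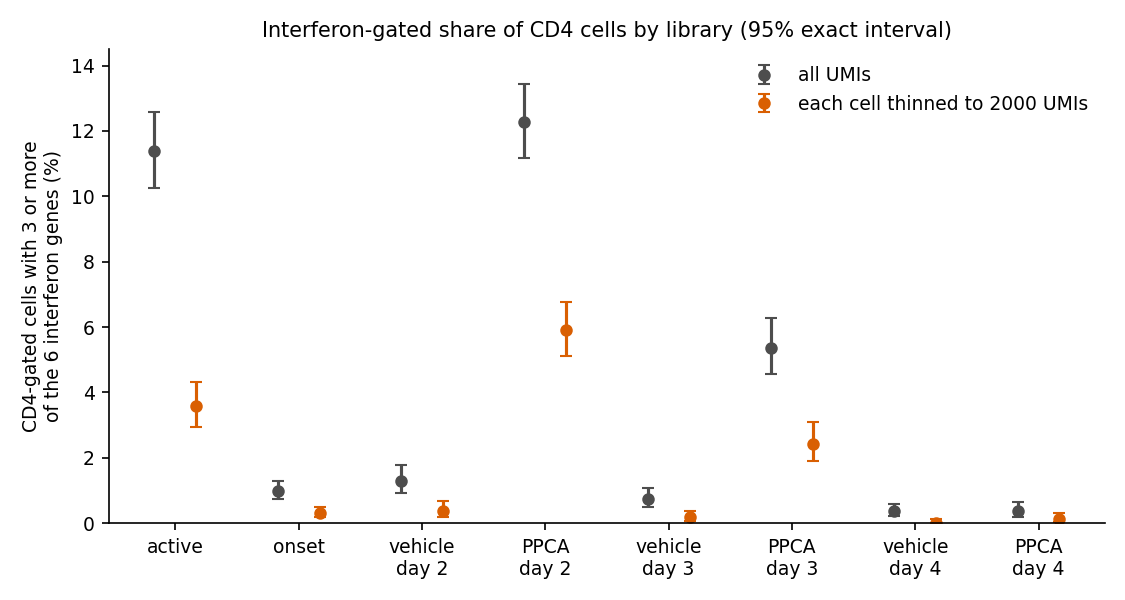
Share of CD4-gated cells (%, vertical axis) with 3 or more of the 6 rule genes in each library (horizontal axis), from all UMIs (grey) and after thinning each cell to 2000 UMIs (orange); bars are exact 95% intervals. The active library (11.4% from all UMIs), PPCA day 2 (12.3%) and PPCA day 3 (5.37%) stand above the other 5, which are at 1.3% or lower.

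Because deeper cells show more genes, each cell was also thinned at random to 2000 UMIs and gated again. The thinned share was 3.59% in the active library, 0.312% at onset, 5.91%, 2.44% and 0.126% under PPCA on days 2, 3 and 4, and 0.387%, 0.188% and 0.0202% under vehicle. The last of these is 1 cell of 4950. Averaged over 3 days, the PPCA share was 2.82% ± 2.91 and the vehicle share 0.198% ± 0.184 (SD, n = 3 each). Treatment was given each day, so the day is also its length, and this SD is not replicate spread alone. PPCA was higher by 2.62 points, on 3 of 3 days. Flipping the sign of each day's difference gave an exact two-sided p = 0.25, the smallest p that 3 days allow, so this difference could not pass a threshold of 0.05. On day 3, the only day on which both libraries were Y-linked, the shares were 2.44% and 0.188%. Without day 2 the difference was 1.18 points and without day 4 it was 3.88 points. With all UMIs it was 5.19 points and higher on 2 of 3 days, since day 4 was slightly lower under PPCA.

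CD8 T cells of the same libraries were gated in the same way, with Cd8a or Cd8b1 detected and Cd4 at 0. Of 24690 such cells 1216 had at least 3 of the 6 genes. Their thinned share was 3.5% in the active library, 0.724% at onset, 5.80%, 2.95% and 0.322% under PPCA on days 2, 3 and 4, and 0.685%, 0.154% and 0.167% under vehicle. The same 3 libraries were highest in both kinds of T cell. Over 8 libraries the CD4 share averaged 1.62% ± 2.17 and the CD8 share 1.79% ± 2.08 (SD), and the CD4 share was the higher one in 3 of 8. The difference of -0.167 points did not pass an exact two-sided sign-flip test (p = 0.0859), a comparison chosen after the shares were seen.

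CD4 cells were also grouped by how many rule genes they held. These counts chose the cells, and the interferon lists belong to the same program, so their rise over the groups is a description and no evidence of its own. A list of 58 type I interferon effector genes, which left out the rule genes, was counted in cells thinned to 2000 UMIs. The mean per cell, as the median over libraries with at least 10 such cells, was 12 UMIs in cells with 0 rule genes, 13.1 with 1, 17.1 with 2, 24.4 with 3 (7 libraries) and 41.3 with 4 to 6 (5 libraries). The list of interferon-gamma GTPases went from 1.13 to 4.09 UMIs over the same steps and the MHC class I list from 16.6 to 21.7 UMIs. A list of naive and central memory genes stayed at 11.1 to 11.6 UMIs at every step. The medians cover fewer libraries in the last groups. A list of genes set off by the T cell receptor had no common direction in the 5 libraries with both ends. It was at 4.36 UMIs with 0 rule genes and 4.5 UMIs with 4 to 6 in the active library, and at 6.39 and 8.43 UMIs at onset (14 cells). It was at 6.1 and 5.27 UMIs in vehicle day 2, 3.27 and 3.01 UMIs in PPCA day 2, and 5.66 and 5.26 UMIs in PPCA day 3.

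**Figure D2:**
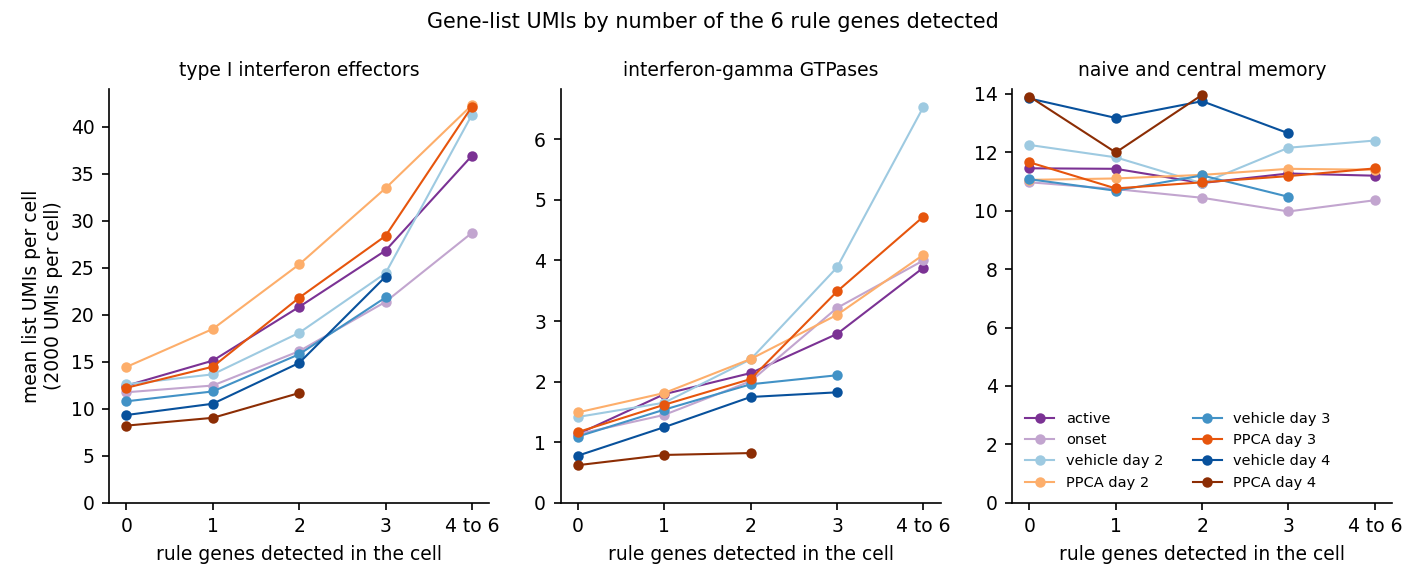
Mean UMIs of 3 gene lists per thinned cell (vertical axes) by the number of rule genes detected in the cell (horizontal axes), with 1 line per library and only groups of at least 10 cells. The type I list rises in all libraries, from a median of 12 with none of the rule genes to 41.3 with 4 to 6, while the naive list keeps its level.

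Single cells of both groups overlapped. For the type I list, the 10th percentile of interferon-gated cells was 10 to 19 UMIs over libraries, and the 90th percentile of negative cells 13.7 to 22. At onset these were 11 and 18 UMIs, and in PPCA day 4 they were 15 and 13.7. Among interferon-gated cells the median cell of a library had 20 to 35 UMIs of the type I list, and among negative cells 8 to 13. Between 0.493% and 3.63% of the negative cells of a library lay at or above the median interferon-gated cell. In the other direction, 2.37% to 14.6% of interferon-gated cells lay at or below the median negative cell. The highest share, 14.6%, was in vehicle day 2, and the lowest in the active library.

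To find what else set these cells apart, UMIs were summed per library over interferon-gated and over negative cells and compared within libraries by edgeR's quasi-likelihood test, leaving the 6 rule genes out. Of 9949 genes tested, 216 were higher in interferon-gated cells (2.17% of the genes tested) and 47 were lower (0.472%) at a Benjamini-Hochberg adjusted p below 0.05. Together these 263 were 2.64% of the genes tested, and 820 (8.24%) had an unadjusted p below 0.05. The genes that were higher included antiviral effectors and some of the nucleic acid sensors, transcription factors of the interferon pathway, interferon-induced GTPases and MHC class I genes. Of these 216 genes, 94 were on the lists used here, 98 were higher in all 8 libraries, and 102 were more than 2-fold higher. No tested gene of the naive, regulatory, follicular helper or T cell receptor lists was among them. The rule genes belong to the same known program, so the direction of the interferon lists is a description of cells chosen for it and not independent evidence. The median log2 fold change over all genes tested was -0.03.

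The number of genes that were lower depended on the method. DESeq2 called 168 higher and 3 lower, limma-voom 173 and 3, and edgeR without the library as replicate block 147 and 2. Without PPCA day 2 there were 187 and 14 calls. Gating after thinning gave 125 and 4 in the 5 libraries that kept at least 10 cells, negative cells matched on total UMIs gave 126 and 22, the 4 libraries with Xist 198 and 39, and the 4 with Y-linked transcripts 117 and 6.

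**Figure D3:**
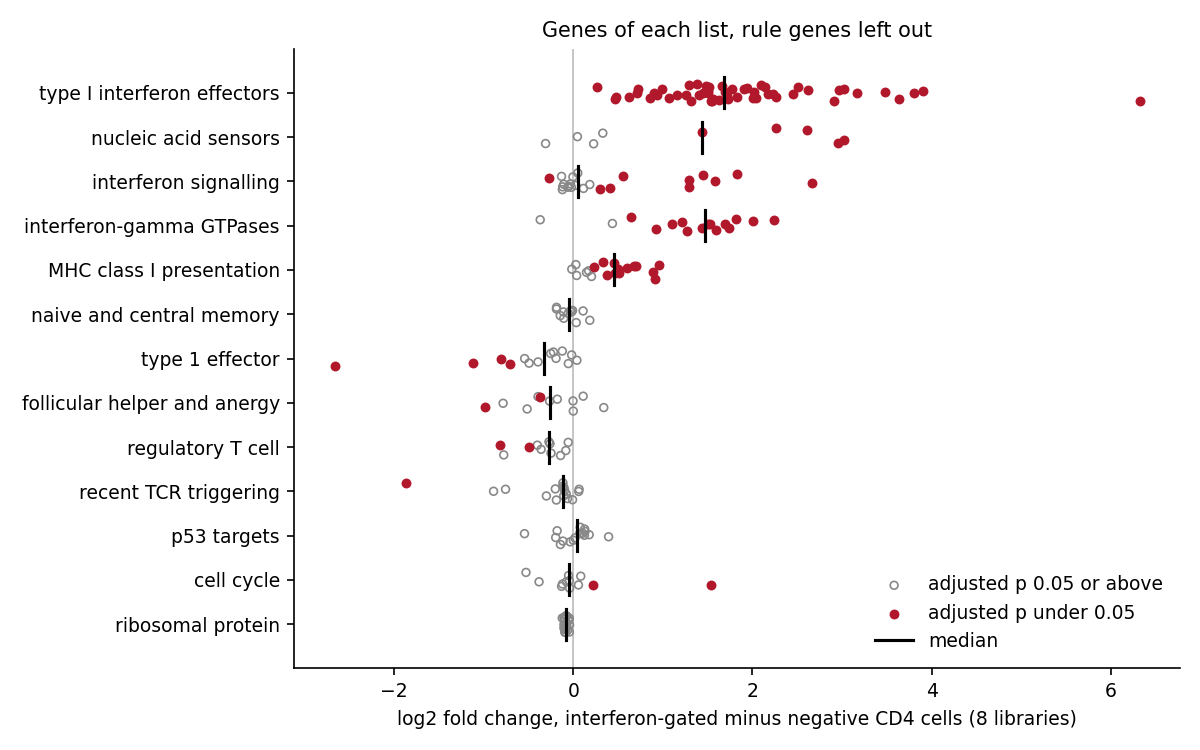
Log2 fold change between interferon-gated and negative CD4 cells (horizontal axis, 8 libraries) for the tested genes of each list (vertical axis); red points passed an adjusted p of 0.05 and bars are list medians. All 54 tested type I effectors lie to the right of 0 and passed, while no naive or ribosomal gene did.

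Of the ligands, no UMI of Ifnb1, Ifna1, Ifna2, Ifna4, Ifna5, Ifna13, Ifne, Ifnl2 or Ifnl3 was found in any kept cell of the 8 libraries. Ifnk, another type I interferon, was at 0.510 to 1.83 CPM of all kept cells. Ifng, the type II interferon made by T cells, was at 8.35 CPM in the active library, 36.8 CPM at onset, 13.9, 11.8 and 26.9 CPM under vehicle and 21.1, 9.98 and 117 CPM under PPCA on days 2, 3 and 4. Its highest level was in PPCA day 4, one of the libraries with few interferon-gated cells.

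No difference was called for the type I receptor chains or their kinases. Ifnar1 was at 28.6 to 66.5 CPM (median 54.2) in interferon-gated cells and 46.1 to 64.2 CPM (median 53.9) in negative cells, with CPM here scaled by TMM, the normalization of edgeR. Its log2 fold change was 0.03 ± 0.10 (SE, adjusted p = 0.987). The other receptor chain, Ifnar2, had a log2 fold change of -0.02 ± 0.10, Jak1 of -0.03 ± 0.07 and Tyk2 of -0.12 ± 0.17, with adjusted p of 0.991, 0.978 and 0.966 from edgeR. Among the factors below the kinases, Stat2 was higher by 1.58 ± 0.14 on the log2 scale. Irf9, its DNA-binding partner, was higher by 1.3 ± 0.08, in 8 of 8 libraries each. Irf7, the factor that amplifies type I interferon production, had the largest change of the signalling list at 2.66 ± 0.08 (edgeR adjusted p = 1.42e-215), from 20.7 to 43.4 CPM in negative cells to 102 to 264 CPM, higher in 8 of 8 libraries. Irf1, which interferon-gamma induces early, was 0.18 ± 0.08 (adjusted p = 0.332) and did not pass. The feedback inhibitor Socs1 was higher by 0.41 ± 0.10 (adjusted p = 0.00228), in only 5 of 8 libraries, and Ifngr1, the interferon-gamma receptor chain, was lower by -0.27 ± 0.08 (adjusted p = 0.0477). Of the 23 signalling genes tested, 9 were higher and 1 lower, with a median of 0.05. Over all genes tested 2.17% were higher and 0.472% lower.

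Among 9 tested sensors of foreign nucleic acid, 5 were higher, where 2.17% of all genes tested were. These were Zbp1 (2.26 ± 0.07), which detects left-handed nucleic acid, Ddx58 (1.44 ± 0.08), which encodes the RNA sensor RIG-I, Ifih1 (2.61 ± 0.14), which encodes its relative MDA5, Dhx58 (2.95 ± 0.20) and the RNA-activated kinase Eif2ak2 (3.02 ± 0.23). Tmem173, which encodes STING, was not called at 0.05 ± 0.08, and neither were Cgas at 0.23 ± 0.22, Myd88 at 0.33 ± 0.13 and Mavs at -0.31 ± 0.27.

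All 54 tested genes of the 58 type I effectors were higher, where 2.17% of all genes tested were. They ranged from 0.27 for Shisa5 to 6.32 for Ifit3b, with a median of 1.68 on the log2 scale. Ifit3b is a near-identical copy of the rule gene Ifit3, so its counts may be shared with that gene. Of genes higher in all 8 libraries at a mean of 20 CPM or more, which leaves out Ifit3b (7 of 8), Oasl2 led. Oasl2 is of the family that senses double-stranded RNA. It was at 33.9 to 86.2 CPM (median 55.5) in interferon-gated cells and 2.51 to 10.4 CPM (median 3.21) in negative cells, with no overlap, a log2 fold change of 3.9 ± 0.17. Ifi206, one of the DNA-binding HIN-200 proteins, followed at 3.17 ± 0.14 and the exonuclease Isg20 at 2.91 ± 0.12. Ifi27l2a was the most abundant of them, at 1718 to 3153 CPM against 362 to 709 CPM (2.18 ± 0.07). Bst2, which encodes tetherin, a protein that holds budding virus at the membrane, was at 157 to 501 CPM against 61.9 to 87.8 CPM (2.23 ± 0.07). Xaf1 (2.62 ± 0.09), Rnf213 (2.51 ± 0.07), Slfn5 (2.45 ± 0.07) and the helicase Ddx60 (2.29 ± 0.10) were likewise higher in 8 of 8 libraries. Under all 19 or 20 alternative settings each of the 12 named genes with the largest rise kept its call. At the low end, the membrane proteins Ms4a4b (0.47 ± 0.07) and Ms4a6b (0.46 ± 0.07) were already at 616 to 927 and 428 to 593 CPM in negative cells.

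**Figure D4:**
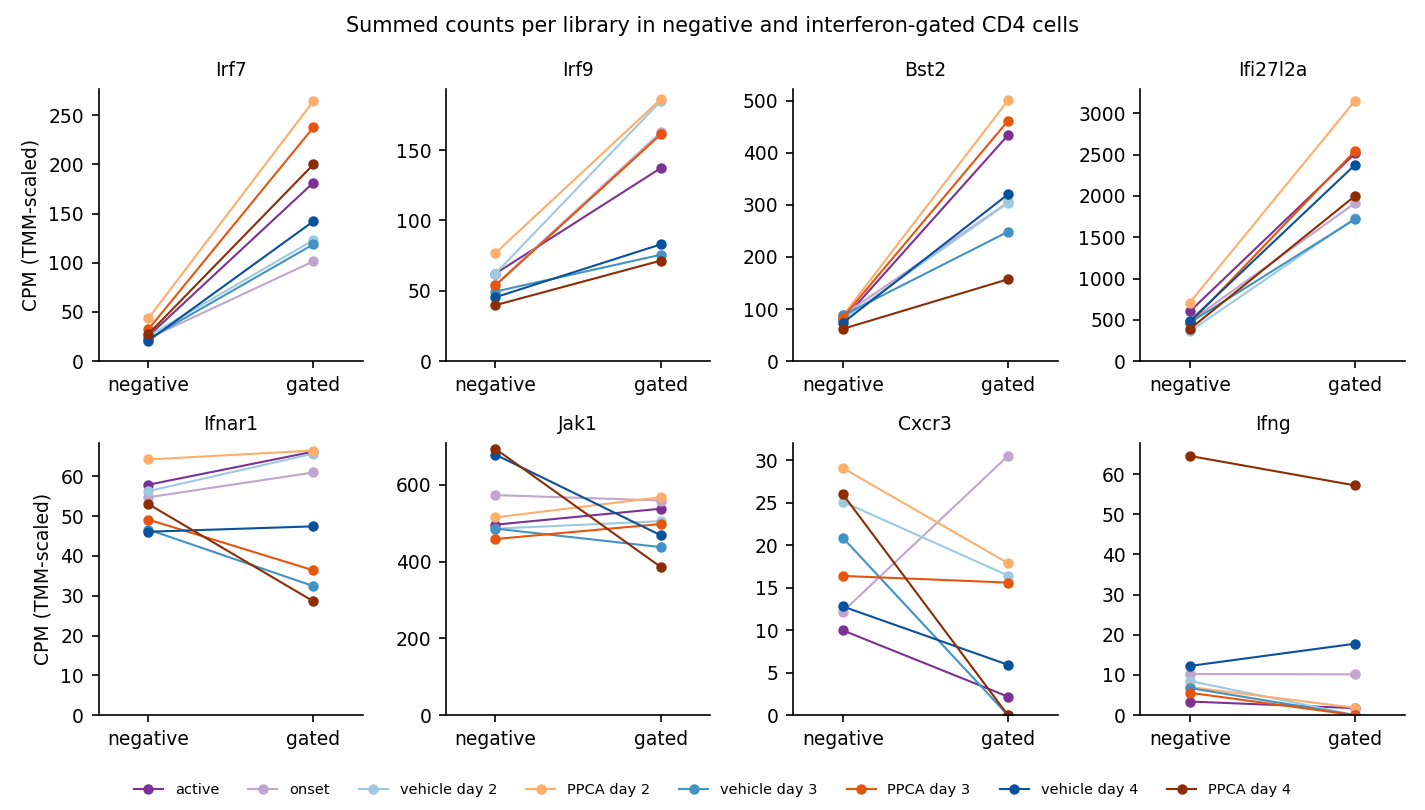
TMM-scaled CPM (vertical axes) of 8 genes in negative and interferon-gated CD4 cells, with 1 line per library. Irf7, Irf9, Bst2 and Ifi27l2a rise in all 8 libraries, Ifnar1 and Jak1 show no common direction, and Cxcr3 is lower in 7 of 8.

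Interferon-gamma GTPases were higher too. Of 16 tested, 14 passed, where 2.17% of all genes tested were higher. None was lower, and the median was 1.47. Igtp, which acts on vacuoles that hold pathogens, was at 77.1 to 283 CPM against 21.4 to 67.7 CPM (1.69 ± 0.08) and Gbp7 at 100 to 386 CPM against 60.1 to 99.3 CPM (1.5 ± 0.07). Ifi47 (1.10 ± 0.07) and Gbp4 (1.21 ± 0.08) were the other abundant members. Near-identical genes of this family can share reads, so single members are less certain than the group.

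The antigen presentation genes had smaller fold changes. Of 19 MHC class I genes 13 were higher, where 2.17% of all genes tested were. None was lower, and the median was 0.46. The proteasome subunit Psmb8 was at 643 to 891 CPM against 415 to 631 CPM (0.51 ± 0.06) and the peptide transporter Tap1 rose by 0.68 ± 0.08. The regulator Nlrc5, which turns on MHC class I genes, rose by 0.89 ± 0.11 and the non-classical H2-T23 by 0.96 ± 0.07. The most abundant genes did not pass, with B2m at 0.20 ± 0.07 (adjusted p = 0.112), H2-K1 at 0.15 ± 0.07 (adjusted p = 0.455) and H2-D1 at 0.04 ± 0.07 (adjusted p = 0.977, all from edgeR). Under gating after thinning, 5 genes of this list passed.

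The promoter repeat GAAANNGAAA, on either strand, was found in 3.44% of 32851 RefSeq windows and in 3.92% of the 7813 tested genes with a window. It was found in 55 of 174 genes that were higher in interferon-gated cells (31.6%) and in 1 of 35 that were lower (2.86%). By group, it was in 18 of 45 type I effectors (40.0%), 10 of 11 interferon-gamma GTPases (90.9%) and 5 of 16 MHC class I genes (31.2%). Of the 12 named genes with the largest rise, 10 had a window and 5 of these a match. The stretches of 4 with a match upstream of the start are shown, again with matches in capitals.
Ifi206, chr1:173491334-173491373, minus strand: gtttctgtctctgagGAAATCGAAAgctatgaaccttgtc
Slfn5, chr11:82951932-82951971, plus strand: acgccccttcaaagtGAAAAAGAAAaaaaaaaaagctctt
Ddx60, chr8:61928019-61928086, plus strand: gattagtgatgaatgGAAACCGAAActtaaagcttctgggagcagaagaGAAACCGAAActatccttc
Bst2, chr8:71537572-71537617, minus strand: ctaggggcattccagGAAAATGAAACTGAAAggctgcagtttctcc
The match of Slfn5 runs into a stretch of A. A match is a description of the letters and not a binding site.

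The summed type 1 effector list was lower in interferon-gated cells in the active library (437 against 747 CPM), vehicle day 2 (297 against 876 CPM), PPCA day 2 (698 against 922 CPM) and PPCA day 3 (561 against 631 CPM). It was higher at onset (1628 against 791 CPM), in vehicle day 3 (943 against 682 CPM), vehicle day 4 (851 against 572 CPM) and PPCA day 4 (1515 against 1227 CPM). In vehicle day 3, 59 of 186 UMIs were Lgals1 of 1 cell, in vehicle day 4, 31 of 138 were Lgals1 of 1 cell, in PPCA day 4, 30 of 88 were Ccl5 of 1 cell, and at onset 83 of 484 were Ccl5 of 1 cell. Of 14 tested type 1 effector genes none was higher and 4 were lower, with a median of -0.32 (over all genes tested 0.472% were lower). These 4 were the chemokine Ccl4 (-2.67 ± 0.36), the cytokine Ifng (-1.12 ± 0.34, adjusted p = 0.0418), the calcium-binding S100a4 (-0.81 ± 0.11) and the chemokine receptor Cxcr3 (-0.71 ± 0.20, adjusted p = 0.0173). Cxcr3 was at 0 to 30.5 CPM (median 10.8) in interferon-gated cells and 9.98 to 29.1 CPM (median 18.6) in negative cells. It was lower in 7 of 8 libraries and higher at onset, and the groups overlapped. Ifng lost its call under 15 of 19 alternatives and Cxcr3 under 8 of 19. S100a4 was lower in only 5 of 8 libraries, with 4.11 to 251 CPM against 51.5 to 105 CPM. Ccl5, a chemokine of memory cells, did not pass at 0.04 ± 0.08.

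Over all genes tested, 4255 of 9949 had a log2 fold change above 0. Of 26 ribosomal protein genes 0 did, of 14 type 1 effector genes 1, and of 17 T cell receptor triggering genes 2. All 11 tested regulatory T cell genes likewise lay below 0, with a median of -0.27 against -0.03 over all genes tested. Of these 11 genes 2 were called lower, where 0.472% of all genes were, Tnfrsf4 (-0.49 ± 0.12, but higher in 3 of 8 libraries) and Nrp1 (-0.81 ± 0.18, higher in 1 of 8), and Foxp3, the factor that defines these cells, was at -0.06 ± 0.17. Of 11 follicular helper and anergy genes, with a median of -0.26, 2 were called lower, Lag3 (-0.99 ± 0.26, higher in 1 of 8 libraries) and Maf (-0.37 ± 0.11, but higher in 4 of 8). Of 17 genes of recent T cell receptor triggering 1 was lower, Tnfrsf9 (-1.87 ± 0.30), while Cd69 was at 0.06 ± 0.07 and Junb at -0.12 ± 0.07. None of 12 naive and central memory genes passed, with Klf2 at -0.19 ± 0.07 and Lef1 at -0.02 ± 0.07. None of 16 p53 target genes or 26 ribosomal protein genes passed. Of 12 cell cycle genes 2 were called higher, where 2.17% of all genes were, Hmgb2 (0.22 ± 0.07) and Mki67 (1.54 ± 0.38), each higher in only 3 of 8 libraries, and 17 UMIs of Mki67 in vehicle day 3 came from 1 cell.

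By the naming rule only 4 genes were lower in all 8 libraries at 20 CPM or more. These were the bicarbonate transporter Slc4a7 (-0.60 ± 0.14), the histone methyltransferase Kmt5a (-0.49 ± 0.12), Mprip (-0.47 ± 0.14) and the protease inhibitor Spint2 (-0.35 ± 0.10). Slc4a7 and Kmt5a lost their call under 6 of 19 alternatives, Mprip under 14 of 19 and Spint2 under 14 of 20. Among the 47 lower genes were also the acinar digestive genes Ctrb1 (-1.37), Try5 (-2.07), Try4 (-2.30) and Prss2 (-1.60), singled out after their values were seen. Of 11 exocrine and endocrine pancreas markers 0 to 8 were detected in the interferon-gated cells of a library, with Gcg, Ins1 and Ins2 at 0. Their summed level was lower than in negative cells in 7 of 8 libraries, with medians of 13.2 and 68.7 CPM. It was higher in PPCA day 4, at 413 CPM in 12 cells. The part of free pancreas RNA in the lower calls was not tested.

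State genes were also compared as shares of cells with at least 1 UMI, after thinning to 2000 UMIs. None of 12 states passed an adjusted p of 0.05 when the signs of the 8 library differences were flipped (exact, two-sided), a test whose smallest p is 0.00781. A single state at that p could not pass after adjustment over 12 states. The smallest p belonged to Cxcr3, in 1.23% ± 1.33 of interferon-gated and 3.08% ± 1.31 of negative cells, and the interleukin-7 receptor Il7r, in 50.1% ± 8.0 and 54.9% ± 8.36 (SD, n = 8). Each was lower in 7 of 8 libraries, with an exact p of 0.0234 and an adjusted p of 0.141. Both directions depended on the processing. With all UMIs Il7r was higher by 1.95 points (76.1% against 74.1%, higher in 6 of 8 libraries), and with the gate after thinning Cxcr3 was higher by 1.42 points in 5 libraries. The Ifng share was 2.64% ± 5.82 and 1.73% ± 1.76, higher in 2 of 8 libraries. Without PPCA day 4, where it was 16.7% of 12 cells, the difference turned from 0.91 to -0.48 points. Cd69 was detected in 54.1% ± 20.5 and 50.6% ± 17.5, lowest in PPCA day 2 (20.0% and 20.8%) and highest in PPCA day 4 (91.7% and 75.6%). The Foxp3 share was 3.39% ± 3.12 and 2.79% ± 1.06. Its difference of 0.60 points turned to -0.16 without PPCA day 4 and to -0.17 with the gate after thinning (5 libraries). CD8-gated cells, which should lack Foxp3, showed it in 0.381% to 1.24% of thinned cells, at a median depth of 4376 to 7289 UMIs before thinning.

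**Figure D5:**
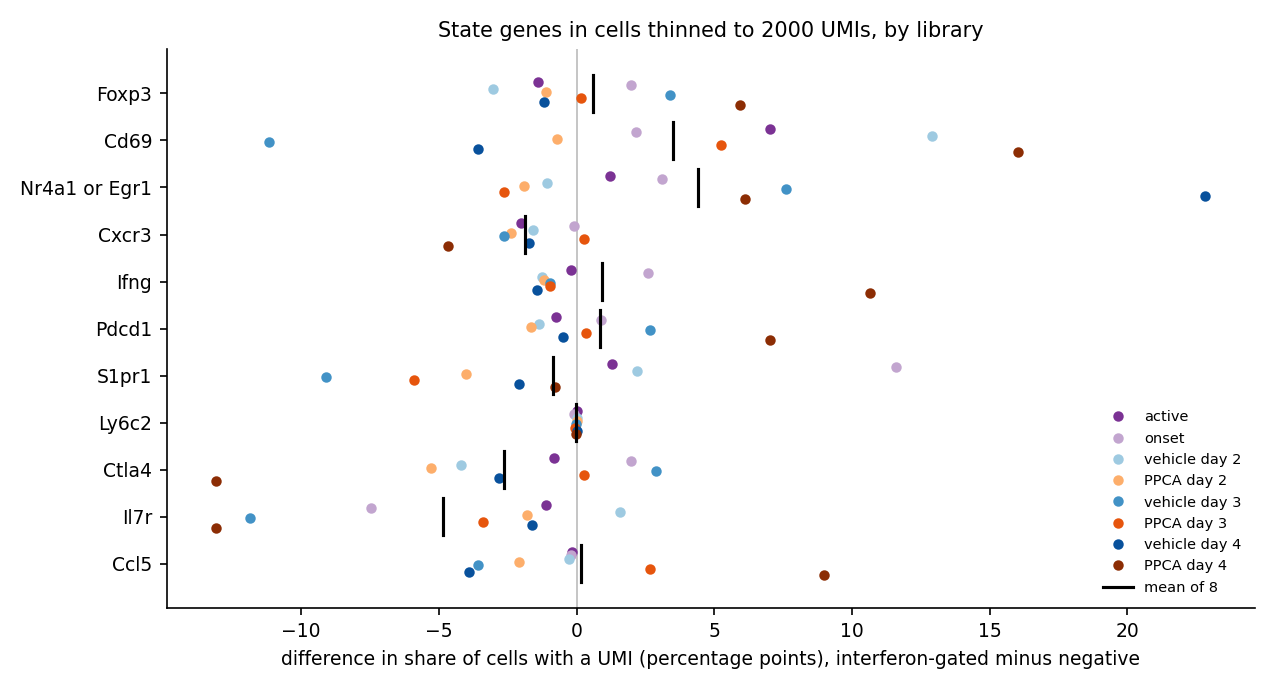
Difference in the share of thinned cells with a UMI (percentage points, horizontal axis) between interferon-gated and negative CD4 cells for 11 of the 12 states (vertical axis), with 1 point per library and the mean of 8 as a bar. Cxcr3 and Il7r lie below 0 in 7 of 8 libraries, and the points farthest from 0 for Cd69 and for Nr4a1 or Egr1 belong to libraries with few interferon-gated cells (12 in PPCA day 4, 19 in vehicle day 4).

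PPCA and vehicle were compared within the interferon-gated cells, with harvest day as block. Of 2978 genes tested 6 passed (0.201% of those tested), 1 higher (0.0336%) and 5 lower (0.168%), and 178 (5.98%) had an unadjusted p below 0.05. The gene that was higher was Ccl5, at 12.5, 0 and 6.05 CPM under vehicle and 143, 136 and 612 CPM under PPCA on days 2, 3 and 4, a log2 fold change of 5.22 ± 0.49 (edgeR adjusted p = 7.77e-06). It rested on few cells. Under vehicle 3 of 41, 0 of 28 and 1 of 19 cells held a UMI of Ccl5, and under PPCA 71 of 411, 9 of 147 and 2 of 12 did, with 30 of the 35 UMIs of day 4 in 1 cell. The call was lost by DESeq2, without the day as block and with at least 2 of the 6 rule genes. In negative cells Ccl5 was at 94.0, 78.0 and 66.3 CPM under vehicle and 130, 95.1 and 384 CPM under PPCA (log2 fold change 1.08 ± 0.37, edgeR adjusted p = 0.611).

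The 5 lower genes were Gm42418, a transcript that overlaps ribosomal RNA (-1.16 ± 0.22), Rps15 (-0.88 ± 0.13), the mitochondrial mt-Co3 (-0.84 ± 0.13), Rpl5 (-0.76 ± 0.14) and Rpl13a (-0.66 ± 0.13). Their differences in negative cells were nearly the same, at -1.18, -0.88, -0.81, -0.75 and -0.76, but did not pass there. The vehicle library of day 3 was the highest of the 6 for each of them. Without the day as replicate block no gene passed, and without day 2, day 3 or day 4 the count was 2, 1 or 46.

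The level of the interferon program inside the gate was not called different. Of 41 tested type I effectors 32 had a log2 fold change above 0 under PPCA, and of all 2978 genes tested 1502 did. None of the 41 passed, with a median of 0.34 against 0.00 over all genes tested. Of 11 interferon-gamma GTPases 5 were above 0 (median -0.11) and of 19 MHC class I genes 9 (median -0.07). Of 20 signalling genes 15 were above 0 (median 0.09), and no gene of these lists passed. Irf7 was at 125, 122 and 145 CPM under vehicle and 263, 233 and 245 CPM under PPCA, with no overlap, a log2 fold change of 0.96 ± 0.22 (edgeR adjusted p = 0.0679). Slfn5 was at 342, 244 and 157 CPM against 544, 509 and 297 CPM (0.86 ± 0.19, adjusted p = 0.0557). Bst2 and Ifi27l2a were at 0.47 ± 0.23 and 0.47 ± 0.14. Of 12 alternatives, 4 called Irf7 higher, 2 called Ifi27l2a and 1 called Bst2. The summed type I list was 14951, 10621 and 11525 CPM under vehicle and 18246, 16331 and 11380 CPM under PPCA on days 2, 3 and 4, so day 4 did not share the direction of the other days. Cdkn1a and Mdm2, the usual targets of p53, were too low to be tested in these cells.

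In negative cells the same contrast called 0 of 11331 genes by edgeR (0%), with 821 (7.25%) at an unadjusted p below 0.05, while DESeq2 called 29 and limma-voom 1. Without day 4 edgeR called 150. The type I list had a median of 0.04 there, and its summed level was 6197, 5360 and 4645 CPM under vehicle and 7138, 5988 and 4086 CPM under PPCA. The test of the difference between both contrasts called 4 of 10499 genes (0.0381%), and 416 (3.96%) had an unadjusted p below 0.05. For Ccl5 (0.00952% of those tested) the log2 fold change under PPCA was more positive in interferon-gated cells, at 5.22 against 1.08 in negative cells. For 3 genes (0.0286%) it was more negative, at -0.39 against 0.57 for Itgb1, -0.38 against 0.51 for Ikzf2 and -1.20 against -0.40 for Lgals1. None of these 3 passed within either kind of cell.

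The active and onset libraries are given as values, each with an exact Poisson 95% interval for counting error. The summed type I list in interferon-gated cells was 15198 CPM (15043 to 15354) in the active library and 12029 CPM (11637 to 12429) at onset, and in negative cells 6218 and 5789 CPM. Among named genes, the ubiquitin ligase Rnf213 was at 308 CPM (286 to 331) against 128 CPM (90.5 to 175) and Ddx60 at 125 CPM (112 to 140) against 43.7 CPM (23.3 to 74.8). Irf7 was at 173 CPM (157 to 190) against 101 CPM (68.1 to 144). Zbp1 was near equal at 252 CPM (232 to 273) and 256 CPM (201 to 320). Cxcr3 was at 2.07 CPM (0.673 to 4.84), 5 UMIs, against 30.3 CPM (13.8 to 57.5), 9 UMIs.

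The authors' deposited table of marker genes names 7 clusters, and the one it calls CD4 Th1 lists 82 genes. Of these 82 genes, 76 (92.7%) were rule genes or were higher in interferon-gated cells here, which is 34.2% of the 222 genes of that combined list. In the authors' deposited table its leading genes include Ifi27l2a (log2 fold change 2.07), Isg15 (1.28) and Ifit1 (1.12), and 5 of the 6 rule genes are listed, all but Rsad2. The Th1 genes Tbx21, Ifng, Cxcr3, Cxcr6 and Ccl5 are not listed for it. In the authors' deposited table Ifng and Cxcr3 are listed for the cluster called CD4 Th17, and all 5 for the one called CD8 TRM TEM. Both lists come from the same cells, so their overlap is not independent evidence. Of the other clusters of the authors' deposited table, CD8 TCM shared 7 of 88 genes and CD4 Treg 33 of 567.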

How the data were processed

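The authors deposited raw UMI counts of 32285 genes per cell barcode for each of the 8 libraries. Cell Ranger 6.0.0 is named per the file headers and Cell Ranger 6.1.2 and Seurat per the submitters' processing notes, while no build of the genome was given there. The authors' deposited marker table gives log2 fold changes, the fraction of cells with each gene and p-values by cluster.

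Cells were gated by the rule given in the report, read and thinned to 2000 UMIs with scanpy 1.11.5 and numpy 2.4.6. Counts were summed per library over interferon-gated and negative cells, using sums of at least 10 cells, and the 6 rule genes were removed. Genes were tested with edgeR 4.0.16 (R 4.3.3), TMM scaling, its expression filter, the quasi-likelihood test and Benjamini-Hochberg adjustment, with the library or the harvest day as block. Alternatives were DESeq2 1.42.0, limma-voom (limma 3.58.1), other scaling, filters, gates and libraries. Shares were compared by exact two-sided sign-flip tests, with exact Clopper-Pearson 95% intervals. Doublets and cells with UMIs of other lineages were kept and left out as alternatives.

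Members and lists were chosen with earlier results of these data known. For the comparison with negative cells, the named genes were the 12 highest and up to 8 lowest log2 fold changes that passed, went the same way in every library and averaged at least 20 CPM, of which 4 lower genes were found. A fixed set of pathway genes and the 2 to 4 most abundant genes of each list were named as well. For PPCA, called genes with 1 direction over the 3 days were named, with a fixed set. Other genes were named after their values were seen, and some genes of the fixed set are not reported here.

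Libraries of 1 harvest day share that day in the labels, which pairs vehicle and PPCA. The correlation of their deviations across genes was 0.149, 0.0956 and 0.195 on days 2, 3 and 4 in interferon-gated cells and 0.319, 0.296 and 0.510 in negative cells. In simulated counts with 200 genes changed 2-fold, the test recovered 87% for the comparison with negative cells (9949 genes, 7 false calls) and 42% for PPCA in interferon-gated cells (2978 genes, 1 false call). It recovered 75% for PPCA in negative cells (11331 genes, 10 false calls) and 23% for the difference between both PPCA contrasts (10499 genes, 3 false calls).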

Additional observations from a re-analysis of the deposited data

Results flagged for a closer look

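In 4 genes the PPCA difference in interferon-gated cells differed from that in negative cells, by edgeR's test of the difference itself. The difference was 3.91 ± 0.49 on the log2 scale for the chemokine Ccl5 (adjusted p = 1.59e-11), -1.27 ± 0.22 for the integrin Itgb1 (adjusted p = 1.82e-05), -1.35 ± 0.26 for the transcription factor Ikzf2 (adjusted p = 0.000421) and -1.06 ± 0.21 for the galectin Lgals1 (adjusted p = 0.00127).

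All 4 rested on few interferon-gated cells under vehicle. Itgb1 had a UMI in 6 of 41, 8 of 28 and 6 of 19 of them on days 2, 3 and 4, with 74.2%, 40.0% and 50.7% of its UMIs in 1 cell. Ikzf2 had a UMI in 1, 3 and 3 cells, and 27 of its 32 UMIs on day 4 came from 1 cell. For Lgals1, 59 of 67 UMIs on day 3 and 31 of 46 on day 4 came from 1 cell. Ccl5 was found in 3, 0 and 1 cells. The part of these single cells in the results was not tested.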

How the results depend on the processing

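The higher share of interferon-gated cells under PPCA kept its direction in every alternative run, from 0.906 points with at least 4 of the 6 genes to 5.34 points with at least 2, and from 1.18 to 3.88 points with 1 day left out. Against the 263 genes called between interferon-gated and negative cells, DESeq2 called 171, gating after thinning 129, negative cells matched on total UMIs 148 and the Y-linked libraries alone 123. Leaving out 1 library gave 201 to 285. Without the replicate block the count was 149, and 0 for PPCA in interferon-gated cells, where the block gave 6.

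For PPCA in interferon-gated cells the count was 20 without cells with UMIs of other lineages, 3 without doublets, 16 with DESeq2 size factors, 39 by limma-voom, 25 with no low-count filter and 31 with sex-linked transcripts as a factor, and 1 to 46 without 1 day. In negative cells it was 29 by DESeq2, 1 by limma-voom, 222 with no low-count filter, 154 with sex-linked transcripts as a factor, and 0 to 150 without 1 day.

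For the difference between both PPCA contrasts it was 2 without cells with UMIs of other lineages, 1 by DESeq2, 1 by limma-voom, 0 after thinning (3 libraries) and 12 with at least 2 of the 6 genes, and 2 to 6 without 1 day. With at least 2 of the 6 genes Ccl5 turned to -0.60, the cause of which was not tested. After thinning Ikzf2 came to 10.13 and Lgals1 to 1.65, but the vehicle arm was then 1 library of 12 cells, so these values say nothing about stability. Gating after thinning was not run for PPCA in interferon-gated cells, since too few libraries kept 10 cells. State shares passed under no alternative, but those with 4 or 5 libraries could not pass, so this says nothing about stability. Vehicle day 4 (19 cells) and PPCA day 4 (12 cells) limit the depth.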
